A study of Mus musculus with 6 samples.

Results

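The transcripts described here encode 3 Notch receptors (Notch1, Notch2, Notch3), 3 of their ligands (Jag1, Jag2, Dll1) and 4 target genes of the pathway (Hes1, Hey1, Heyl, Nrarp). They were chosen by gene symbol, and all 10 were found among the 23337 genes of the deposited table. A gene was tested if its mean over all libraries was at least 10 normalized counts, which left 13671 genes and all 10 of these. The RNA came from mouse basal cell carcinoma (BCC) cells of ear epidermis. All the mice carried 1 copy of R26-SmoM2, an always-active form of the Hedgehog transducer Smoothened, together with K14CreER, a Cre recombinase that tamoxifen activates and that the Krt14 promoter drives in basal keratinocytes. Tamoxifen was given at 4 weeks of age, and the stage label of every library is 6 weeks later. The first group was R26-SmoM2/+ K14CreER (3 libraries, here wild type), and the second was R26-SmoM2/+ Yapfl/fl K14CreER (3 libraries, here knockout), in which the same Cre also deletes the floxed Yap allele. The labels do not say which animals a library came from, nor whether animals were pooled, so a p-value here reflects only how far apart the libraries lie, which may be technical.

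A Notch receptor is cut after it binds a Delta or Jagged ligand on a neighbouring cell, and its freed intracellular domain joins the DNA-binding protein RBPJ to switch on target genes. The HES and HEY targets are transcriptional repressors. In epidermis, Notch signalling is known for its role in moving keratinocytes from the basal layer into differentiation, with Jagged and Delta ligands made by keratinocytes themselves.

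The libraries held 15405490 to 25260431 reads in genes, and the depth was lowest in the libraries numbered 3. In the sample titles those 2 libraries have codes beginning with DM24, and the other 4 have codes beginning with DM22; what the codes mark is not given. On a principal component that held 58.0% of the variance, the DM24 libraries lay at 49.0 and 49.8 and the DM22 libraries between -45.3 and -12.0. Results are therefore also given with this code series as a term and within DM22. Yap1, the deleted gene, was measured at 5765, 6004 and 5573 normalized counts in the wild-type libraries (in the order 1 to 3, as for every gene from here on) and at 591, 773 and 1764 in the knockout ones. Its log2 difference was -2.63 ± 0.39 (SE), with an adjusted p of 0.517 from limma and 1.37e-07 from DESeq2, and knockout library 3 kept the most transcript. Summed basal keratinocyte markers, led by Krt5, ran from 512861 to 729342 normalized counts, and the 10 hair follicle and tumour markers, led by Krt17, from 194556 to 273865. Endothelial markers summed to 115 to 265, with Emcn at 0 in every library and Cdh5 at 0 in 5 of them. The mural list summed to 8733 to 11784, led by Cspg4, while Rgs5 was at 0 to 2.52. Summed levels ran from 40007 to 68321 for fibroblast markers, 299 to 934 for myeloid and Langerhans markers, 261 to 1086 for lymphoid, 386 to 746 for melanocyte, 835 to 1299 for Schwann cell and 16668 to 21631 for sebocyte markers. Cd3d and Ms4a1 (lymphoid) and Gpr143 (melanocyte) were at 0 in every library.

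None of the 10 Notch transcripts passed the test between knockout and wild type. Limma, applied to log2(normalized count + 1), called 0 of the 10 at an adjusted p under 0.05, against a background of 0% of all genes tested, and 0 of the 10 had an unadjusted p under 0.05. That test called no gene at all, with 759 genes at an unadjusted p under 0.05. DESeq2 on the recovered reads called 0 of the 10 against 0.505% of all genes, edgeR 0 against 0% (760 genes at an unadjusted p under 0.05), and DESeq2 with the code series as a term 0 against 2.22%. In all 10 genes the ranges of the groups overlapped. Of all genes tested, 11% had groups that did not, so a count of 0 among 10 does not set these genes apart. The difference was below 0 for 8 genes and above 0 for 2, with a median of -0.25 on the log2 scale beside 0.00 over all genes tested. Within the same-numbered pairs the median over the 10 genes was -0.17, -0.29 and 0.11. In bulk RNA, fewer cells of a type and less RNA per cell cannot be told apart.

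**Figure D1:**
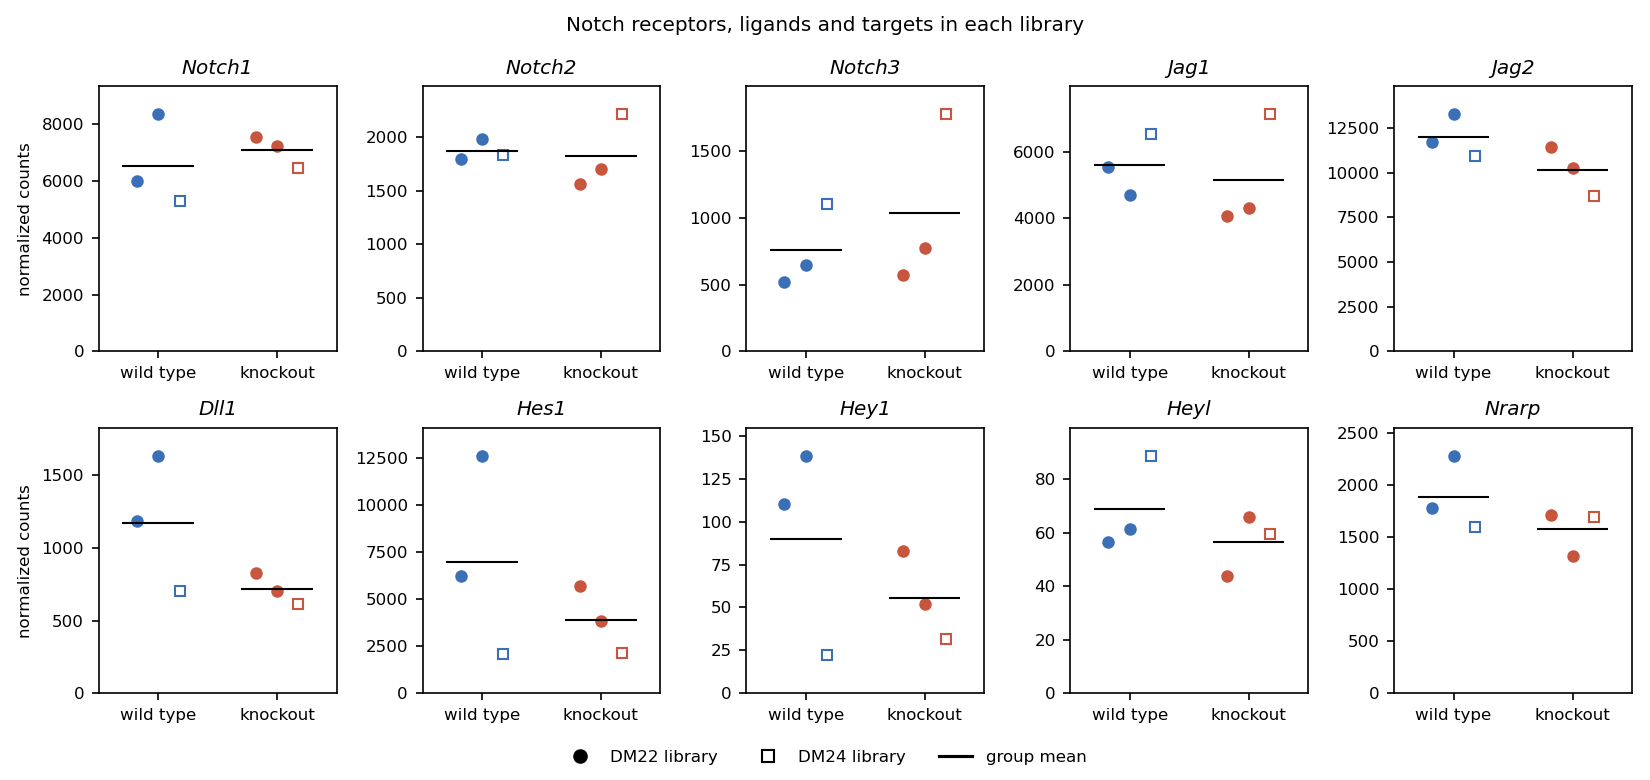
Normalized counts of the 10 Notch genes in each library (linear vertical axes from 0), wild type on the left and knockout on the right of each panel; marker shape separates the DM22 and DM24 codes, and each bar is the mean of 3 libraries. The groups overlap in every panel, and the wild-type libraries of Hes1 spread from 2110 to 12592.

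Among the receptors, Notch1 was the most abundant. Notch1 (chr2:26457903-26516663, minus strand, GRCm38), the main receptor of epidermal keratinocytes, gave 5988, 8342 and 5282 normalized counts in the wild-type libraries and 7563, 7246 and 6441 in knockout. All 3 knockout values lay inside the wild-type range. The log2 difference was 0.14 ± 0.18 (SE; 95% interval -0.29 to 0.57; adjusted p = 0.996, limma). Notch2 (chr3:98013527-98150361, plus strand, GRCm38) had 1792, 1979 and 1829 in wild type and 1562, 1699 and 2210 in knockout. The wild-type libraries were close together, and the knockout libraries fell on both sides of them. Its difference was -0.05 ± 0.14 (SE; interval -0.38 to 0.28; adjusted p = 0.999, limma). Notch3 (chr17:32120820-32166852, minus strand, GRCm38), a receptor best known from vascular smooth muscle and also made by keratinocytes, had 523, 646 and 1108 in wild type and 573, 774 and 1777 in knockout. The highest value of either group was its DM24 library. The difference was 0.36 ± 0.47 (SE; interval -0.79 to 1.51; adjusted p = 0.996, limma). Like 2087 of the 13671 genes tested, it was above 0 in each pair, at 0.13, 0.26 and 0.68. Without knockout library 3 it was -0.11 by limma, which had no term for the code series, and 0.21 by DESeq2 with that term.

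The start of Notch1 is shown because its window held 2 matches to the TEAD letters, the factors through which YAP acts. RefSeq promoters (GRCm38.p6) were found for 7 of the 10 genes, and the 250 bases before each start were searched on both strands for GGAATG (TEAD), TGGGAA (RBPJ) and TGANTCA (AP-1). Hes1, Hey1 and Heyl were not matched in the promoter table used. Over 32851 promoters of the same length, 12.6% held the TEAD letters, 21.6% the RBPJ letters and 6.75% the AP-1 letters. The window of Notch1 is chr2:26503823-26504072 on the minus strand, inside the GENCODE span of the gene and, but for 2 bases, in an intron of its longer transcript. Capitals mark the matches, which lie 233 to 228 and 216 to 211 bases before the start and read as CATTCC on the strand of the gene. The second start of Dll1 is shown for its AP-1 match, at 109 to 103 bases before the start, in capitals. That window is chr17:15376933-15377182 on the minus strand, just outside Dll1 and within an exon of A930024N18Rik, a long non-coding RNA of the opposite strand. A match to such letters is a description of the sequence only.
Notch1: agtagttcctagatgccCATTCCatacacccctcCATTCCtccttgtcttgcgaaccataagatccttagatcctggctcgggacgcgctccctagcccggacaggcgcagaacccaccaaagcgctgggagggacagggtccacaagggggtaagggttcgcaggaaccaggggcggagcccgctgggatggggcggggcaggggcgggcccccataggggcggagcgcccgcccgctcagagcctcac
Dll1: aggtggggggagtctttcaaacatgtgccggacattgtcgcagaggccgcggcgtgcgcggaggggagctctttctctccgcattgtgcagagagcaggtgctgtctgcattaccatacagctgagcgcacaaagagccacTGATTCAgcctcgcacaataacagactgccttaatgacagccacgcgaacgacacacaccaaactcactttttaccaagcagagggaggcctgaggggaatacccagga
No match to any of the 3 motifs was found in the windows of Notch2, Notch3, Jag1, Jag2 and Nrarp or at the other start of Dll1. Jag2 had the highest GC content of these windows, 87.2%, and Dll1 at the start shown the lowest, 56%, beside a median of 52.4% over all promoters.

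Jag2 was the most abundant ligand. Jag2 (chr12:112907819-112929776, minus strand, GRCm38), a membrane-bound ligand of the Jagged family, gave 11697, 13253 and 10947 normalized counts in the wild-type libraries and 11411, 10269 and 8693 in knockout. Only knockout library 1 lay inside the wild-type range, and the other knockout libraries were under it. The log2 difference was -0.25 ± 0.13 (SE; 95% interval -0.55 to 0.06; adjusted p = 0.933, limma). Jag1 (chr2:137081456-137116644, minus strand, GRCm38), the other Jagged ligand, had 5538, 4709 and 6545 in wild type and 4069, 4310 and 7132 in knockout. Knockout libraries 1 and 2 were the lowest of the 6, and knockout library 3 was the highest. Its difference was -0.15 ± 0.24 (SE; interval -0.73 to 0.43; adjusted p = 0.996, limma).

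Dll1 had the limma difference farthest from 0 of the 10 genes, although by DESeq2 without a term Hes1 (-0.84) was farther from 0 than Dll1 (-0.71). Dll1 (chr17:15367354-15376872, minus strand, GRCm38), the Delta ligand linked in epidermis to stem cell and progenitor patches, had 1185, 1629 and 705 in wild type and 830, 703 and 617 in knockout. The DM22 wild-type libraries lay above all knockout libraries, and the DM24 wild-type library lay among them. The difference was -0.64 ± 0.31 (SE; interval -1.38 to 0.10; adjusted p = 0.925, limma), and in the pairs it was -0.51, -1.21 and -0.19. It was -0.36 without wild-type library 2 and -0.96 without wild-type library 3. For the same omissions, DESeq2 with the code series as a term gave -0.45 and -0.87. Both Dll1 and Jag2 were below 0 in each pair, as were 17.3% of all genes tested. When the code series was a term, Dll1 had an adjusted p of 0.0754 from DESeq2 and 0.344 from limma. Within DM22 alone, 2 libraries against 2, DESeq2 gave -0.87 ± 0.21 (SE) with an adjusted p of 0.00456, against a background of 1.96% of genes called, while limma gave 0.298 (background 0.0146%). By an interaction term, the log2 difference was 0.67 higher in DM24 than in DM22. DM24 holds 1 library of each genotype. This term, for Dll1 and for the other genes, therefore cannot show whether the difference depended on the code series.

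The ligands together were lower in the knockout libraries, a pattern noticed after the values were seen and given without a test. The 3 ligands summed to 18421, 19591 and 18197 normalized counts in the wild-type libraries and 16311, 15282 and 16442 in knockout. The sums of the groups did not overlap, as was so for 11% of the single genes tested. The knockout mean was 0.855 times the wild-type mean. Jag2 was the largest part of the sum in every library, and the groups overlapped for each of the 3 ligands alone. Per kb of exon the sums were 2911, 3097 and 2862 in wild type and 2533, 2381 and 2618 in knockout, a ratio of 0.849.

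Hes1 varied most in absolute terms among the targets. Hes1 (chr16:30064384-30067796, plus strand, GRCm38), the repressor that serves as the usual readout of Notch signalling, gave 6251, 12592 and 2110 normalized counts in the wild-type libraries and 5691, 3866 and 2126 in knockout. Wild-type library 2 stood far above the rest, and the DM24 libraries of the groups were nearly equal. The log2 difference was -0.61 ± 0.69 (SE; 95% interval -2.28 to 1.06; adjusted p = 0.995, limma). By limma it was -0.01 without wild-type library 2 and -1.30 without wild-type library 3. For the same omissions, DESeq2 with the code series as a term gave -0.22 and -0.97. Nrarp (chr2:25180758-25183339, plus strand, GRCm38), a target that feeds back to dampen Notch signalling, had 1780, 2275 and 1598 in wild type and 1711, 1317 and 1698 in knockout. Wild-type library 2 was again the highest, and the other values lay close together but for knockout library 2. Its difference was -0.25 ± 0.17 (SE; interval -0.65 to 0.15; adjusted p = 0.969, limma).

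Hey1 and Heyl were low. Hey1 (chr3:8663359-8667256, minus strand, GRCm38), a repressor of the HEY family, gave 110, 138 and 22.1 normalized counts in the wild-type libraries and 82.9, 51.9 and 31.6 in knockout, from 17 to 144 reads per library. As for Hes1, wild-type library 2 was the highest and the DM24 libraries were the lowest. Its difference was -0.43 ± 0.75 (SE; interval -2.24 to 1.38; adjusted p = 0.999, limma). By limma it was 0.052 without wild-type library 2 and -1.24 without wild-type library 3. For the same omissions, DESeq2 with the code series as a term gave -0.27 and -0.87. Heyl (chr4:123233556-123249875, plus strand, GRCm38), a further member of the family, had 56.3, 61.3 and 88.4 in wild type and 43.7, 66.0 and 59.4 in knockout, from 47 to 80 reads per library. The groups overlapped, and the wild-type DM24 library was the highest. Its difference was -0.27 ± 0.27 (SE; interval -0.93 to 0.39; adjusted p = 0.993, limma). These 2 genes rest on few reads, and the change of a low gene is understated by the added count of 1.

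**Figure D2:**
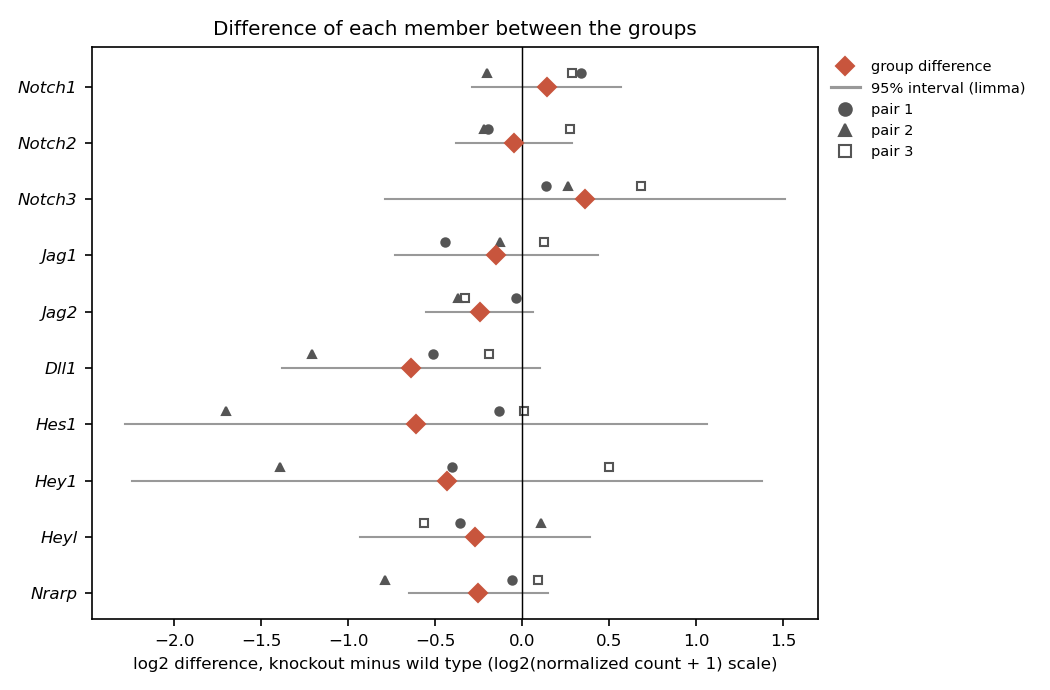
Log2 difference (knockout minus wild type, log2(normalized count + 1) scale) of each Notch gene; points are the 3 same-numbered pairs, and the diamond and bar are the limma estimate and its 95% interval. Every interval covers 0, with Hey1 and Hes1 the widest.

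The intervals were wide where the code series differed. When the code series was a term, the standard error was smaller for 9 of the 10 genes: that of Hes1 was 0.34 in place of 0.69, and that of Notch3 0.17 in place of 0.47. In that limma fit the intervals of Jag2 (-0.45 to -0.04) and Dll1 (-1.12 to -0.16) lay below 0, and neither gene passed adjustment over all genes (adjusted p = 0.381 and 0.344). An interaction of genotype and code series was called for none of the 10 genes by limma, which called no gene tested for that term and had 748 genes at an unadjusted p under 0.05, nor by DESeq2 for the 8 to which it gave an adjusted p.

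Some of the 10 genes differed between the code series. With genotype held, limma called 2 of the 10 genes between DM24 and DM22, against a background of 6.75% of all genes, and DESeq2 called 5 against 15%. Notch3 had 1108 and 1777 normalized counts in DM24 and 523 to 774 in DM22. All DM24 values lay above all DM22 values. Its log2 difference, DM24 minus DM22, was 1.17 ± 0.18 (SE; adjusted p = 0.0289, limma). Jag1 had 6545 and 7132 in DM24 and 4069 to 5538 in DM22, again with no overlap. Its difference was 0.56 ± 0.12 (SE; adjusted p = 0.0477, limma). Hes1 had 2110 and 2126 in DM24 and 3866 to 12592 in DM22, with a difference of -1.61 ± 0.36 (SE; adjusted p = 0.0595, limma, and 0.00888, DESeq2). Hey1 had 22.1 and 31.6 in DM24 and 51.9 to 138 in DM22, with a difference of -1.73 ± 0.39 (SE; adjusted p = 0.0541, limma, and 0.00369, DESeq2). A receptor and a ligand were thus higher in DM24, and the values of Hes1 and Hey1 were lower. DESeq2 also called Dll1 lower in DM24 (adjusted p = 0.034; limma, -0.64 ± 0.20 (SE), adjusted p = 0.110). In these 4 genes, Notch3, Jag1, Hes1 and Hey1, the code series did not overlap, as in 39.2% of all genes tested.

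The limma calls between the code series depended on single libraries of either series. Leaving out wild-type library 3, knockout library 1, 2 or 3 ended the call of Notch3 (adjusted p = 0.0972, 0.0511, 0.081 and 0.221), with differences of 1.41, 1.04, 1.23 and 0.93. The call of Jag1 ended on leaving out wild-type library 2 or 3 (adjusted p = 0.0537 and 0.0932) or knockout library 1, 2 or 3 (0.145, 0.136 and 0.27), with differences of 0.54, 0.77, 0.52, 0.55 and 0.36. The count of all genes called was 39 to 1493 over these fits. Lists of other genes differed between the code series as well. Of the 9 tested sebocyte markers, limma called 4 higher in DM24 and DESeq2 6, with a median log2 difference of 1.67; their sum was 21099 and 21631 in DM24 and 16668 to 19665 in DM22. Suprabasal keratinocyte markers, led by Krt1, summed to 58178 and 118952 normalized counts in DM24 and to 36333 to 50072 in DM22, with 1 of 11 called higher by limma and 6 by DESeq2. Fibroblast markers, led by Postn, summed to 42859 and 40007 in DM24 and to 57287 to 68321 in DM22. That sum did not stand for the list: the 6 tested fibroblast markers had a median log2 difference of 0.86, DM24 minus DM22. Of these, limma called 2 lower in DM24, and DESeq2 called 2 higher and 2 lower. Hair follicle and tumour markers summed to 198325 and 194556 in DM24 and to 230365 to 273865 in DM22. The 22 immediate-early and heat-shock genes are a group known to be induced when tissue is dissociated. Led by Hspa1b, they summed to 321562 and 157723 in DM24 and to 521439 to 864605 in DM22. Against a background of 6.75%, limma called 15 of the 22 lower in DM24, and DESeq2 18 against 15%, at a median log2 difference of -1.58. Their part in the values of the Notch genes was not tested, and depth, which was lower in both DM24 libraries, cannot be told apart from the code series.

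**Figure D3:**
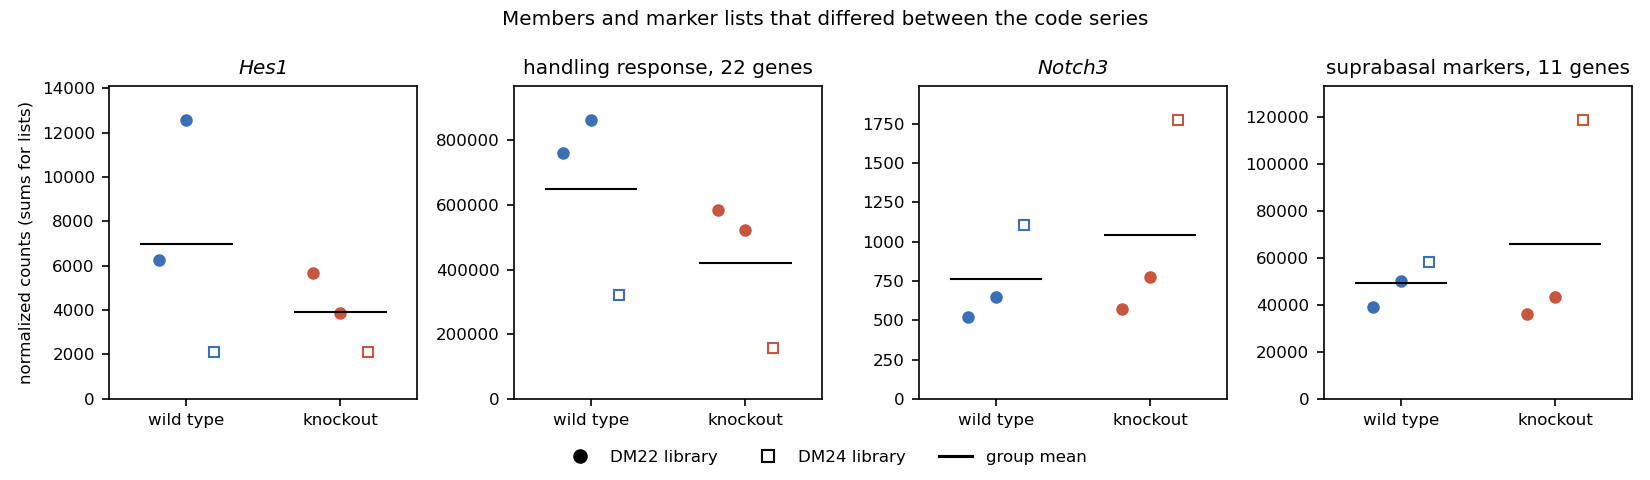
Normalized counts of Hes1 and Notch3 and summed normalized counts of the immediate-early and heat-shock genes (22 genes) and the suprabasal markers (11 genes) in each library, from 0, with marker shape for the code series. Hes1 and the 22-gene sum are lowest in the DM24 libraries, and Notch3 and the suprabasal sum are highest there.

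Some of these 22 genes were called between the genotypes by DESeq2 only. All 22 lay below 0 on the log2 scale, at a median of -0.63. Without a term, each of limma, edgeR and DESeq2 called 0 of them (background 0%, 0% and 0.505%). DESeq2 with the code series called 10 lower (background 2.22%), and with the replicate block 7 lower (background 1.24%). With the code series or the block, limma and edgeR called 0 of all genes tested, so they could call none of the 22. Jun, an AP-1 subunit, had a log2 difference of -0.82 ± 0.07 (SE, DESeq2 with the code series, adjusted p = 1.32e-29). Hspa8, a constitutive heat-shock chaperone, had -1.33 ± 0.21 (SE; adjusted p = 7.09e-08), Egr1, an immediate-early zinc finger factor, -0.89 ± 0.15 (SE; adjusted p = 9.46e-07), and Klf6, a Kruppel-like factor, -0.79 ± 0.12 (SE; adjusted p = 9.68e-08), all from the same DESeq2 fit. The list sum was 761840, 864605 and 321562 in wild type and 584436, 521439 and 157723 in knockout, highest in wild-type library 2, as were Notch1, Jag2, Dll1, Hes1, Hey1 and Nrarp. The sums of the basal keratinocyte, hair follicle and tumour, fibroblast and lymphoid markers were also highest in that library, and those of the other cell types were not. Whether the 22 genes bear on the values of the Notch genes was not tested.

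Per kb of exon, which allows levels of different genes to be compared, Hes1 had the highest mean at 2670 ± 1919 normalized counts per kb (SD, n = 6) and above 98.3% of the 12320 tested genes with a length. In both DM24 libraries Jag2 was the higher, at 1572 and 1248 beside 1036 and 1043 for Hes1, and Hes1 was the higher in the 4 DM22 libraries. By the mean over libraries, Jag2 followed at 1586 ± 218, Jag1 at 924 ± 214, Nrarp at 670 ± 121 and Notch1 at 479 ± 78.6. The lower genes were Dll1 at 224 ± 92.5, Notch2 at 171 ± 21.0, Notch3 at 111 ± 59.0, Hey1 at 22.3 ± 14.0 and Heyl at 12.2 ± 2.88, the last above 10.5% of genes. Neighbours in this order overlapped in their ranges over the 6 libraries, except that Jag2 lay wholly above Jag1 and Notch3 wholly above Hey1. By this exon length, ligands of the Jagged family were measured at higher levels per kb than any of the receptors. The length merges the exons of all annotated transcripts of a gene, 14232 bases for Notch1. Whether the order, or the shares given below, would hold with the lengths of single transcripts was not tested.

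**Figure D4:**
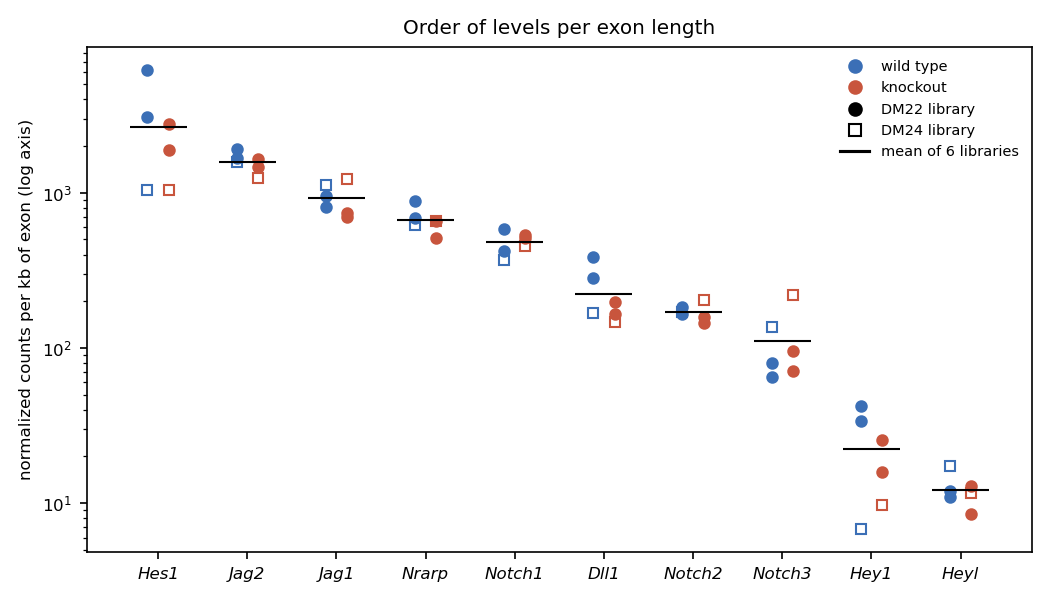
Normalized counts per kb of exon (log axis) of the 10 Notch genes in order of their mean (bar), one point per library, with colour for genotype and shape for code series. Hes1 is the highest on average, Hes1 and Hey1 are the most spread on this axis, and Hey1 and Heyl lie lowest.

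The makeup of the receptors and of the ligands per kb shifted with the code series. Notch1 made up 62.8 ± 7.28% of the 3 receptors in wild type (SD, n = 3), against 63.2 ± 10.3% in knockout. Notch3 was 9.40 to 12.6% of them in DM22 and 20.2 to 25.04% in DM24. Jag2 made up 58.0 ± 3.27% of the 3 ligands in wild type and 58.1 ± 9.13% in knockout. Jag1 was 26.1 to 32.7% of them in DM22 and 39.2 to 46.7% in DM24. These shares are made from the same counts as the levels, so they restate the shift towards Notch3 and Jag1 in the DM24 libraries.

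The genes whose profile over the 6 libraries was most like that of a member were found by the root mean square difference of gene-centred log2 values. For Dll1 they were AW011738 (0.0895) and Fam110a (0.117), beside a median of 0.503 over 10379 candidates. For Hes1 they were Slc4a4, a sodium bicarbonate cotransporter (0.129), and Mafk, a small MAF transcription factor (0.225), beside a median of 0.909. For Hey1 they were Slc4a4 again (0.213) and Foxq1, a forkhead transcription factor (0.285), beside a median of 0.931. Slc4a4 gave 125, 237 and 33.8 normalized counts in the wild-type libraries and 105, 84.9 and 40.5 in knockout, with the same order of libraries as Hes1.

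No other gene of the pathway passed the test either. Of 92 further Notch pathway genes with a row, 79 were tested. The tests with limma, edgeR and DESeq2 called 0 of them, beside 0%, 0% and 0.505% of all genes. DESeq2 with the code series or the replicate block also called 0, beside 2.22% and 1.24%. The median log2 difference of the 79 was 0.01, with 36 below 0 and 43 above. Beside 759 of all 13671 genes tested, 2 of the 79 had an unadjusted limma p under 0.05. Those were Aak1, a kinase of clathrin-coated vesicles (0.23 ± 0.06 (SE), adjusted p = 0.722), and Eogt, an enzyme that adds N-acetylglucosamine to Notch and is listed as A130022J15Rik (-0.31 ± 0.11 (SE), adjusted p = 0.885), with p-values from limma. The remaining low genes, among them Dll3, Hes5, Hey2 and Ptcra, were under the mean of 10 normalized counts.

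The medians of the groups of further pathway genes lay between -0.14 and 0.09, while single genes ranged more widely. The further receptors and ligands had a median of -0.14 over 5 genes, with Dlk2, a non-canonical ligand, at -0.39 and Egfl7, a secreted Notch-binding protein, at -0.25. The cleavage machinery had 0.01 over 10 genes, with Aph1c of the gamma-secretase complex at -0.26 and Furin, the protease that cuts the receptor in the Golgi, at 0.23. The glycosylating enzymes had -0.03 over 9 genes, with Lfng, a Fringe that tunes ligand choice, at -0.17. Ligand endocytosis had 0.09 over 8 genes, with Neurl1a at 0.31 and Neurl3 at -0.20, both ubiquitin ligases of the Neuralized family. Receptor trafficking and turnover had 0.03 over 12 genes, with the Deltex ubiquitin ligases Dtx4 at 0.63 ± 0.29 (SE) and Dtx2 at 0.29. Dtx4 gave 104, 167 and 108 normalized counts in the wild-type libraries and 139, 251 and 202 in knockout, and it did not pass the test (adjusted p = 0.918, limma).

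Nuclear cofactors had a median of 0.02 over 21 genes, with the corepressor Tle1 at 0.21 and the acetyltransferase Kat2b at -0.20. Rbpj, the DNA-binding partner of every Notch receptor, was at 0.04 ± 0.11 (SE). The remaining HES and HEY relatives had 0.05 over 3 genes, with the repressors Bhlhe41 at 0.50 and Bhlhe40 at -0.11. Other reported targets had -0.05 over 11 genes, with Id2, an inhibitor of differentiation factors, at -0.44 and the growth regulator Myc at -0.37. Between the code series limma called 3 of the 79 further pathway genes (background 6.75%), all of them reported targets and lower in DM24: Id2 at -1.50 ± 0.25 (SE; adjusted p = 0.0344), Myc at -0.90 ± 0.17 (SE; adjusted p = 0.0416) and Trp63, the master factor of basal keratinocytes, at -0.56 ± 0.12 (SE; adjusted p = 0.0474).

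**Figure D5:**
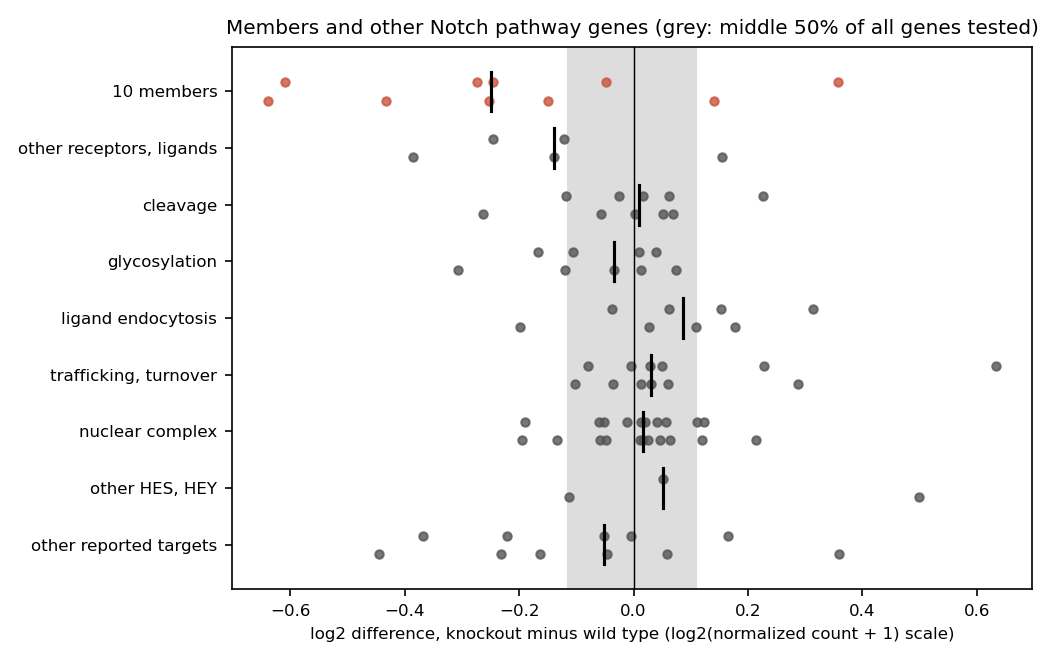
Log2 differences (knockout minus wild type, log2(normalized count + 1) scale) of the tested genes of each Notch pathway group, one point per gene (the 10 described above in red), with the group median as a bar and the middle 50% of all genes tested in grey. The medians lie between -0.25 for the 10 genes and 0.09 for ligand endocytosis, and no gene passed the test.

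Markers of endothelial and mural cells, which express Notch genes of their own, were compared between the genotypes. Of the endothelial markers 4 of 10 were tested, with Tek at 0.66 and Vwf at 0.27 on the log2 scale, and with at most 15.7 and 65.1 normalized counts in any library. Of the mural markers 6 were tested, 4 below 0 and 2 above, at a median of -0.30, with the channel subunits Abcc9 at -1.26 and Kcnj8 at -1.24. Limma, edgeR and DESeq2 called none of the 6 on all libraries (0, 2 and 2 at an unadjusted p under 0.05), and DESeq2 within DM22 called Cspg4, a proteoglycan also made by keratinocytes, higher (0.38 ± 0.11 (SE), adjusted p = 0.0327). Kcnj8 gave 422, 85.2 and 433 normalized counts in the wild-type libraries and 79.4, 104 and 140 in knockout, with adjusted p = 0.933 from limma. The groups overlapped for it, and Pdgfrb, a defining mural gene, was at 0 in 3 libraries and at 25.3 in the highest. Their part in the level of Notch3 was not tested.

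The kit does not mark strand, so reads of overlapping exons on opposite strands cannot be told apart. In GENCODE M21, Nrarp shares 2051 of its 2582 exon bases with the antisense gene Gm38287, Dll1 shares 867 with A930024N18Rik, Notch1 shares 1068 with 0610009E02Rik and 414 with Gm13568, and Notch3 shares 488 with Gm17276. Notch2 shares 541 with Gm42820 of the same strand. The values of these 5 genes may hold reads of their partners.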

How the data were processed

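A Qiagen column kit was used for total RNA and the TruSeq RNA kit v2, which does not mark strand, for the libraries, per the labels' protocols. STAR 2.5, DESeq2 1.18.1 and the mouse build mm10 (GRCm38) are named in the submitters' processing notes; the counting tool, annotation and filters are not given in the sources used here. The growth protocol mentions collection 6 or 9 weeks after tamoxifen, and each sample's stage label gives 6. The signal values that the authors deposited, for 23337 genes in 6 libraries, are read counts divided by 1 size factor per library. In every library 100% of values were whole multiples of 1 step (tolerance 0.001 reads), and these steps were equal to size factors by the median of ratios (1.19, 1.04 and 0.769 in wild type, 1.12, 1.21 and 0.791 in knockout), so whole reads were recovered. No read was found for 5122 genes. A count of 0 allows up to 3 reads, or 2.47 to 3.90 normalized counts; such limits cover counting error only.

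The 13671 genes whose mean reached 10 normalized counts were tested two-sided, knockout minus wild type, 3 against 3, with limma 3.58.1 (R 4.3.3), using a robust prior with a trend, on log2(normalized count + 1), with Benjamini-Hochberg adjustment over all of them at 0.05. Log2 differences understate the change of low genes. DESeq2 1.42.0 and edgeR 4.0.16 were run on the recovered reads as alternatives; DESeq2 gives no adjusted p for some low genes, which stay out of its counts. An exact permutation test of 3 against 3 cannot give a p under 0.1, so none was run on single genes. Alternatives were other pseudocounts, filters, scalings and tools, the replicate block, the code series as a term, DM22 libraries only, and each library left out; the DM24 against DM22 comparison was added after the values were seen. The fits were tested on simulated counts.

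Both groups carry the replicate numbers 1 to 3. Across genes, same-numbered libraries deviated from their group means with correlations of 0.333, 0.327 and 0.694, all above 0.1, and the numbers were taken as pairs. Differently numbered DM22 libraries also passed 0.1: knockout 1 with wild type 2 (0.505) and knockout 2 with wild type 1 (0.260). The threshold therefore cannot show which DM22 libraries belong together, and within DM22 the pairing rests on the label numbers alone.

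The genes and lists were chosen with earlier results of these data known. Named genes were all 10 members and, from every other pathway list and the endothelial, mural and 22-gene immediate-early and heat-shock lists, genes called by limma or by DESeq2 with the code series (up to 4), or else the 2 with the largest absolute difference. Aak1 and the summed ligands, outside that rule, were picked after their values were seen, as were Rbpj, Trp63, Cspg4, Pdgfrb, Rgs5 and Cdh5. Kyat1 and Aagab were dropped from the pathway lists after the values were seen, as they are not Notch genes. Coordinates (1-based) and exon lengths, merged over all transcripts of a gene, come from GENCODE M21, and promoter sequences from RefSeq.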

Additional observations from a re-analysis of the deposited data

How the results depend on the processing

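For the comparison of knockout with wild type, 0 of the 10 Notch genes and 0 of the other pathway genes were called by limma, by edgeR and by DESeq2 on all 6 libraries. Of 280 alternatives over the 10 genes, 270 kept direction and side of the threshold. Much of that count was fixed in advance. In 16 of the 22 settings for which all genes were counted, no gene at all was called, so none of the 10 could change side. Limma with the block or the code series gives the same log2 difference as without, so its direction could not turn. The number of all genes called was 0 by limma, 69 by DESeq2, 303 by DESeq2 with the code series as a term, 2 (limma) and 268 (DESeq2) with DM22 libraries only, and 0 to 1 by limma with a library left out. DESeq2 called 1 of the 10 genes, Dll1, with DM22 libraries only, and 0 to 1 with the code series as a term and a library left out: Dll1 without wild-type library 3 or knockout library 3, where only DM22 libraries inform the genotype so that the DM22 result is restated, and Notch1 (0.30, adjusted p = 0.0313) without wild-type library 2. Without each of the other 4 libraries, the adjusted p of Dll1 in that fit was 0.162 to 0.9999. Between DM24 and DM22, DESeq2 called 2056 genes and 5 of the 10, and limma with a library left out called 39 to 1493 genes and 0 to 2 of the 10. With the replicate block, which treats same-numbered libraries as pairs, limma called 0 genes, DESeq2 169 and 0 of the 10 genes, and it changed no call of these genes; the adjusted p of Dll1 was then 0.214 from DESeq2 and 0.473 from limma.

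With a library left out, the sign turned in limma for Hey1 (log2 difference from -1.24 to 0.052, above 0 without wild-type library 2), Notch1 (-0.000136 to 0.33, below 0 without wild-type library 3), Notch3 (-0.11 to 0.70, below 0 without knockout library 3) and Notch2 (-0.20 to 0.055, above 0 without knockout library 1). These limma fits had no term for the code series, so leaving out a library changed the share of DM24 libraries in 1 genotype. In DESeq2 with the code series, Hey1 was -0.27 without wild-type library 2. Notch1 was 0.054 without wild-type library 3, and Notch3 was 0.21 without knockout library 3. In that fit the sign turned for Notch2, at 0.040 without wild-type library 2 and 0.035 without knockout library 1, in a range from -0.20. For DM24 against DM22 it turned for Notch2 (-0.043 to 0.44, below 0 without knockout library 3) and Nrarp (-0.33 to 0.18, above 0 without wild-type library 2, at 0.035, or 3). The cause was not tested. Where leaving out a library leaves 1 DM24 library, that library is assumed to vary like the others. The median over the 10 genes stayed between -0.25 and -0.06. Hey1 and Heyl, with at most 144 reads a library, had little depth for small changes.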
